A study of Mus musculus with 2 samples.

Results

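The chemokine ligands of Th1 cultures were read as 10 genes chosen by symbol: Ccl1, Ccl3, Ccl4, Ccl5, Ccl9, Ccl22, Xcl1, Cxcl9, Cxcl10 and Cxcl16. They are ligands known to be made by activated T cells or induced by interferon gamma (IFNγ), and all 10 were found among the 24421 genes listed. RNA was sequenced from Th1 cells, which are naive CD4 T cells activated through the T cell receptor and CD28 and skewed in culture with IL-12, IL-2 and an antibody to IL-4. 1 library was labelled WT (genotype Chi3l1+/+) and 1 was labelled Chi3l1 KO (genotype Chi3l1-/-), both on the C57BL/6J strain background. Chi3l1 encodes chitinase 3-like 1, a secreted chitinase-like protein without chitinase activity. The labels do not give the age or sex of the mice, or how many were pooled. No difference between the libraries therefore has a replicate check, and no p-value is given.

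The targeted gene was read first, because it checks the labels. Chil1, the symbol under which Chi3l1 was listed, had a log2 value of 0.942 in the library labelled WT and 6.656 in the library labelled KO, which are 1 and 103 reads. The targeted gene was thus higher in the library labelled KO, against its label, and a value per gene cannot show whether these reads lie outside the disrupted part. Every direction below is between the libraries as labelled.

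Chemokines are small secreted proteins that bind G protein-coupled receptors and draw cells along a gradient. Activated T cells release several CC ligands and the XC ligand of dendritic cells, whereas the CXC ligands of CXCR3 are transcribed in many cell types after IFNγ binds its receptor. In Th1 responses these families bring further T cells, NK cells and myeloid cells to the site where IFNγ is made.

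The 250 bases before the transcription start are shown for 4 ligands: the neighbouring IFNγ-induced genes Cxcl10 and Cxcl9, which were both higher in the library labelled KO, Xcl1, which had the largest positive difference among ligands above 3 reads, and Ccl9, which was lower. The promoters are from RefSeq (build GRCm38.p6, all on the minus strand, written 5′ to 3′ along the gene), whose table held 7 of the 10 ligands; Ccl4, Ccl5 and Cxcl16 had no entry. Capitals mark a match on either strand to the interferon-stimulated response element (ISRE, searched as GAAANNGAAA), an NF-kB site or an AP-1 site.
Cxcl10 (chr5:92348890-92349139): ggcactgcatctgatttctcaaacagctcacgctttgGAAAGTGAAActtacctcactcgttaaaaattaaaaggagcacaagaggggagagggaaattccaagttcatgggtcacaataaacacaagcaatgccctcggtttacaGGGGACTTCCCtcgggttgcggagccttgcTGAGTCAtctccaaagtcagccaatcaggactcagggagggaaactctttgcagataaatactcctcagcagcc
Cxcl9 (chr5:92328080-92328329): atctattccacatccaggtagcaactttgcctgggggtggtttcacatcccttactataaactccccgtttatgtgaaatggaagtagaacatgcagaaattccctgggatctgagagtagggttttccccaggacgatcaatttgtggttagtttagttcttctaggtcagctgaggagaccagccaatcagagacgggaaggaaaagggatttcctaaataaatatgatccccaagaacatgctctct
Xcl1 (chr1:164935523-164935772): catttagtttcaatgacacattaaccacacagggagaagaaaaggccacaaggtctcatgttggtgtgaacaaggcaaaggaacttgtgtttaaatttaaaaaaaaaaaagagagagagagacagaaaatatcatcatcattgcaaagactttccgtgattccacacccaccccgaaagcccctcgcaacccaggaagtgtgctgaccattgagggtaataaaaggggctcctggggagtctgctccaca
Ccl9 (chr11:83578637-83578886): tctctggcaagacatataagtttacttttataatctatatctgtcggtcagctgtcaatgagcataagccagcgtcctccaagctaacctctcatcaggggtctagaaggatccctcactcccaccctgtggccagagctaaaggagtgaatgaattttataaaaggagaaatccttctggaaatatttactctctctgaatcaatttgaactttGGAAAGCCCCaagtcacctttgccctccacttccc

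The Cxcl10 promoter held an ISRE match at -213 to -204, with -1 the base before the start. It also held overlapping NF-kB matches from -104 to -94 and an AP-1 match at -74 to -68. ISRE letters were in 2.98% of all 32851 promoters of this length, NF-kB letters in 5.0% and AP-1 letters in 4.46%. NF-kB was also matched in 2 other ligands, at -35 to -26 on the other strand of Ccl9 and at -195 to -186 on the other strand of Ccl1. The gamma-activated site TTCNNNGAA (7.02% of promoters) and the T-box letters TCACACCT (1.12%) were in none of the 7. These matches describe letters in this window, and binding was not measured.

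Levels were compared between genes only as normalized counts per kilobase of the longest transcript, with exact Poisson 95% intervals that cover counting error alone. Ccl4 and Ccl3, CC ligands that draw T cells and myeloid cells, were the highest in both libraries. Ccl4 was at 9250 per kilobase (9023 to 9481) in the library labelled WT and 7560 (7355 to 7769) in the library labelled KO. Ccl3, a ligand of CCR1, was at 4689 (4540 to 4843) and 5117 (4961 to 5277). Among the 23376 genes with a transcript length, Ccl4 was in the top 2.18% and 2.38% and Ccl3 in the top 4.14% and 3.56%.

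Ccl5 and Ccl22 came next. Ccl5, a ligand of CCR1 and CCR3, was at 989 per kilobase (916 to 1066) in the library labelled WT and 385 (341 to 435) in the library labelled KO. Ccl22, a ligand of CCR4, was at 949 (910 to 990) and 848 (810 to 886). The intervals of these neighbours overlapped in the library labelled WT and not in the library labelled KO, where Ccl22 stood 2.20 times above Ccl5 per kilobase.

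The lower ligands were Cxcl10, Cxcl9, Xcl1, Ccl9, Cxcl16 and Ccl1, in that order in both libraries. Cxcl10 was at 123 and 189 per kilobase and Cxcl9 at 43.3 and 82.2. Xcl1 was at 22.2 and 70.3, Ccl9 at 17.4 and 7.72, and Cxcl16 at 9.70 and 3.21. Intervals overlapped between Cxcl9 and Xcl1 and between Ccl9 and Cxcl16 in both libraries, between Xcl1 and Ccl9 in the library labelled WT, and between Cxcl16 and Ccl1 in the library labelled KO. Ccl1 was at 0 and 0.890 per kilobase, so that transcripts of this ligand, known from activated T cells, were hardly seen at this depth. With coding length in place of the longest transcript, 5 of 10 ranks changed in the library labelled WT and 2 of 10 in the library labelled KO, and Ccl4 and Ccl3 stayed first and second.

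**Figure D1:**
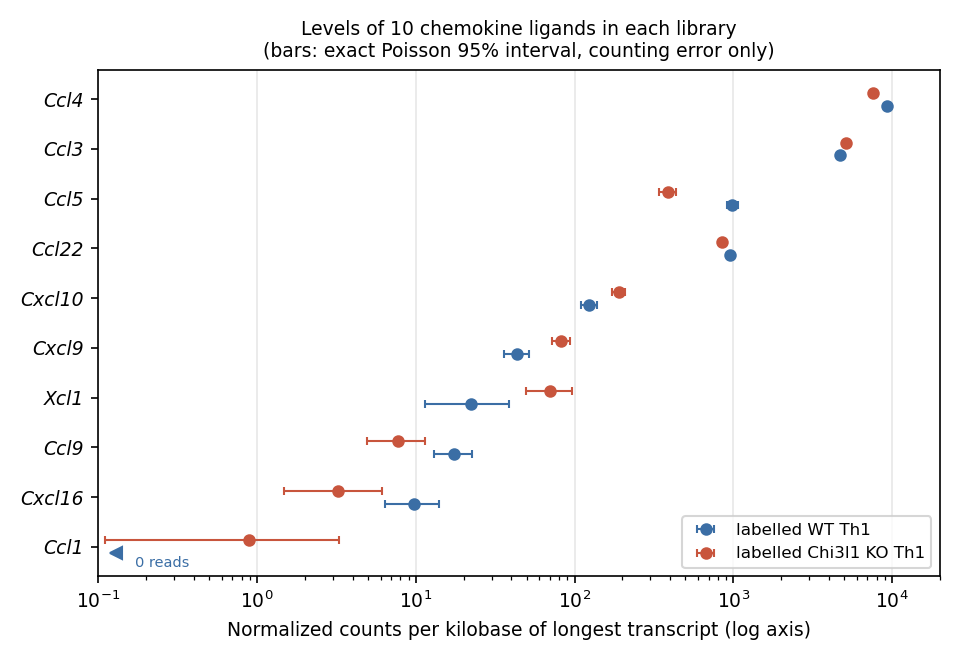
Normalized counts per kilobase of the longest transcript (log axis) of the 10 ligands in the 2 libraries. Points are the 2 libraries, bars are exact Poisson 95% intervals of counting error, and a triangle marks 0 reads. Ccl4 and Ccl3 stand above the other ligands in both libraries, and Ccl5 shows a gap between the libraries wider than its bars.

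The ligand reads were made up of few genes. Of the summed normalized counts of the 10 ligands, Ccl4 took 47.1% in the library labelled WT and 42.4% in the library labelled KO. Ccl3 took 27.7% and 33.3%, and Ccl22 took 16.2% and 16.0%. Together these 3 held 91.1% and 91.6%. Ccl5 went from 5.10% to 2.19%, Cxcl10 from 2.12% to 3.58% and Cxcl9 from 0.97% to 2.02%. These shares are not per length, and per kilobase Ccl22 took 5.90% and 5.94%. The 10 ligands held 95.9% and 95.4% of the counts of these and 28 other chemokine ligands.

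**Figure D2:**
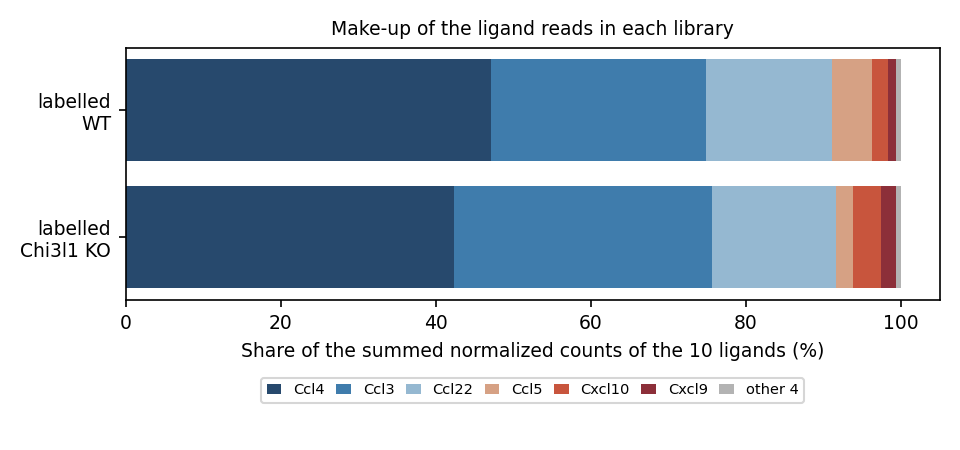
Share of the summed normalized counts of the 10 ligands (horizontal axis, percent) taken by each ligand in the 2 libraries. Ccl4, Ccl3 and Ccl22 fill 91.1% and 91.6% of the bars, and the Ccl5 segment is 5.10% in the library labelled WT and 2.19% in the library labelled KO.

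Differences are given as the deposited log2 value of the library labelled KO minus that of the library labelled WT, so that a positive value is higher in the library labelled KO. Each has a Clopper-Pearson 95% interval (exact binomial) for the log2 ratio of normalized counts, which covers the counting error of these 2 libraries and no variation between mice or cultures. In bulk RNA, fewer cells of a type and less RNA per cell cannot be told apart.

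Among the T cell ligands, Ccl5 was lower in the library labelled KO and its locus neighbours Ccl3 and Ccl4 were near their level in the library labelled WT. Ccl5, on chromosome 11 (83525778-83530518, minus strand, mm10), had log2 values of 9.370 and 8.014, from 683 and 267 reads. The difference was -1.36 (-1.57 to -1.15), which is 2.57-fold lower. Ccl5 was the ligand above a log2 value of 8 with the widest gap between the libraries.

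Ccl4 (11:83662584-83664683, plus strand) had log2 values of 12.576 and 12.285, from 6310 and 5168 reads, a difference of -0.29 (-0.34 to -0.24). Ccl3 (11:83647844-83649355, minus strand) had 11.811 and 11.937, from 3713 and 4060 reads, a difference of 0.13 (0.06 to 0.19). The intervals of these abundant ligands were narrow and on opposite sides of 0. Both differences were smaller than the SD of 0.369 over the 8886 genes whose log2 values were 8 or more in each library.

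Xcl1, the ligand of the XCR1 receptor of cross-presenting dendritic cells, was the ligand with the largest positive difference among those above 3 reads. Xcl1 (1:164931644-164935527, minus strand) had log2 values of 3.655 and 5.239, from 12 and 38 reads. The difference was 1.58 (0.69 to 2.73). Xcl1 lies on the chromosome of Chil1, 30.7 Mb away. Ccl9 (11:83572919-83578636, minus strand), a ligand of CCR1 also made by myeloid cells, had 5.738 and 4.597, from 54 and 24 reads, a difference of -1.14 (-1.93 to -0.45).

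Ccl1, a ligand of CCR8 (11:82176657-82305690, minus strand), had 0 reads in the library labelled WT, which allows up to 3 reads, and 2 in the library labelled KO. No fold is given because both libraries were at or under 3 reads.

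The IFNγ-induced ligands of CXCR3 were both higher in the library labelled KO. Cxcl9 (5:92321347-92328079, minus strand) had log2 values of 6.979 and 7.897, from 129 and 246 reads, a difference of 0.92 (0.62 to 1.25). Cxcl10 (5:92346638-92348889, minus strand), whose promoter held the ISRE match, had 8.106 and 8.725, from 284 and 437 reads, a difference of 0.62 (0.40 to 0.84). Neither reached 2-fold in the deposited values.

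Cxcl16, a transmembrane ligand of CXCR6 that ADAM10 sheds, was among the lowest ligands in both libraries. Cxcl16 (11:70453983-70459984, minus strand) had log2 values of 4.765 and 3.274, from 27 and 9 reads, a difference of -1.49 (-2.86 to -0.46). Ccl22 (8:94745590-94751699, plus strand), a CC ligand known from dendritic cells, B cells and activated T cells, had 11.039 and 10.876, from 2174 and 1945 reads, a difference of -0.16 (-0.25 to -0.07). The Ccl22 interval excluded 0, at a size below the spread of well expressed genes.

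**Figure D3:**
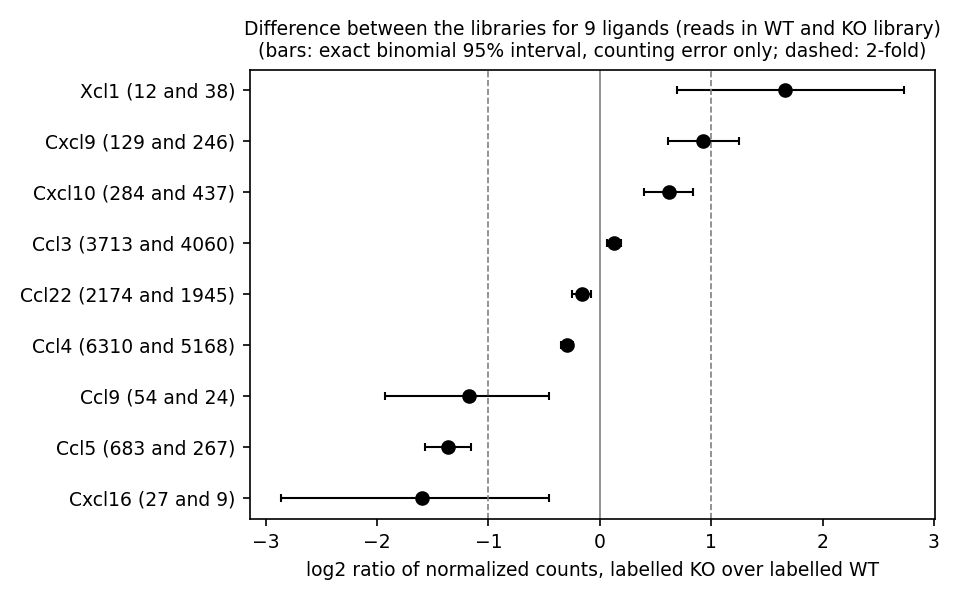
log2 ratio of normalized counts, labelled KO over labelled WT, for the 9 ligands above 3 reads, with the reads of the WT and KO library beside each name. Points are the ratios, bars are exact binomial 95% intervals of counting error and dashed lines mark 2-fold. Xcl1 with 12 and 38 reads and Cxcl16 with 27 and 9 reads have the widest bars, and Ccl5 lies below the 2-fold line with its whole bar.

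At 2-fold or more in the deposited values, 2 of the 10 ligands were higher in the library labelled KO (Ccl1 and Xcl1; background 4.7% of all 24421 genes) and 3 were lower (Ccl5, Ccl9 and Cxcl16; background 5.81%). Without Ccl1, which had 0 and 2 reads, 1 of the 9 ligands above 3 reads was higher and 3 were lower. Low genes pass 2-fold more often, so the ligands were also read by level. Of the 5 ligands whose log2 values were 8 or more in each library, 0 were higher (background 0.461%) and 1, Ccl5, was lower (background 0.743%). Ccl5 stood only just above this floor in the library labelled KO, at 8.014. Under the floor it would be set against the lower band, where 18.2% of genes were called lower. Of the 4 in the band above 3 reads but under a log2 value of 8 in at least 1 library, 1 was higher (Xcl1; background 14.3%) and 2 were lower (Ccl9 and Cxcl16; background 18.2%). The median difference was -0.02 over the 10 ligands and 0.00 over all genes listed, of which 8273 were at 0 in both libraries. Among genes above 3 reads it was -0.16 over the 9 ligands and -0.01 over all such genes.

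**Figure D4:**
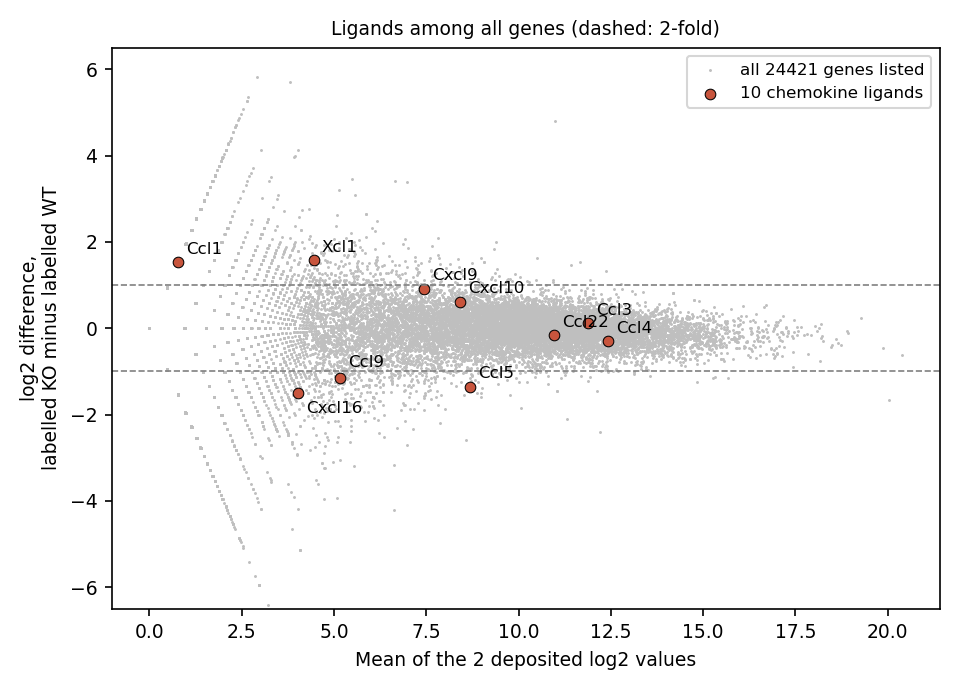
Difference of the deposited log2 values, labelled KO minus labelled WT, against the mean of both values for all 24421 genes, with the 10 ligands marked. Dashed lines mark 2-fold. The cloud widens at low values, where Ccl1, Xcl1, Ccl9 and Cxcl16 lie, and Ccl5 lies below the 2-fold line in the denser part.

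Ratios between ligands do not depend on how the libraries were scaled to each other. 9 pairs were compared, each with an exact conditional 95% interval of counting error. No rule was set for the choice of pairs, and most hold Ccl5. The ratios rest on the same reads as the differences above, so those with Ccl5 carry its difference again and are not further evidence. The ratio of Ccl3 to Ccl5 normalized counts was 5.44 in the library labelled WT and 15.2 in the library labelled KO, 2.80 times higher (2.41 to 3.26). The ratio of Ccl4 to Ccl5 was 2.10 times higher (1.81 to 2.43). Ccl3, Ccl4 and Ccl5 thus differed unequally between the libraries.

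The ratio of Ccl4 to Ccl3 was 1.70 and 1.27, and that of the library labelled KO was 0.749 of the other (0.707 to 0.794). The ratio of Ccl22 to Ccl3 was 0.818 of that in the library labelled WT (0.758 to 0.883). The ratio of Cxcl10 to Ccl5 was 3.95 times higher (3.19 to 4.86), that of Cxcl9 to Ccl5 4.87 times higher (3.75 to 6.35), and that of Xcl1 to Ccl5 8.13 times higher (4.06 to 17.3). Intervals of 2 pairs included 1: Cxcl9 to Cxcl10, with a ratio of ratios of 1.23 (0.948 to 1.62), and Ccl5 to Ccl9, with 0.880 (0.522 to 1.52).

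The ligands fall in clusters on the genome (mm10). Along chromosome 11, within 100 kb of Ccl5, Ccl9, Ccl3 and Ccl4, the difference was -2.23 for Heatr9 (13 and 2 reads), -1.36 for Ccl5, -1.14 for Ccl9, -0.75 for Ccl6, 0.13 for Ccl3 and -0.29 for Ccl4. Ccl5 and Ccl9 were past 2-fold, Ccl6 and Ccl4 were lower by less, each with an interval below 0, and Ccl3 was above 0. Taf15, on the outer side of Heatr9, was at 0.45 (337 and 463 reads). Ccl6 is overlapped by E230016K23Rik on the other strand (21 and 7 reads), and whether the counting used strand was not given in the sources used here.

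On chromosome 5 the neighbours Cxcl9, Cxcl10 and Cxcl11, all ligands of CXCR3, were at 0.92, 0.62 and 0.41. Cxcl11 had 17 and 23 reads, and its interval of -0.53 to 1.43 included 0. The flanking genes were at -0.47 (Naaa), 0.20 (Sdad1) and 0.69 (Nup54), so that Nup54, which encodes a nuclear pore protein, differed by as much as Cxcl10. Genes that overlap a ligand on the other strand were at 0 reads in both libraries (Gm20743 at Xcl1, Art3 at Cxcl10) or at 4 reads in both (Zmynd15 at Cxcl16).

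**Figure D5:**
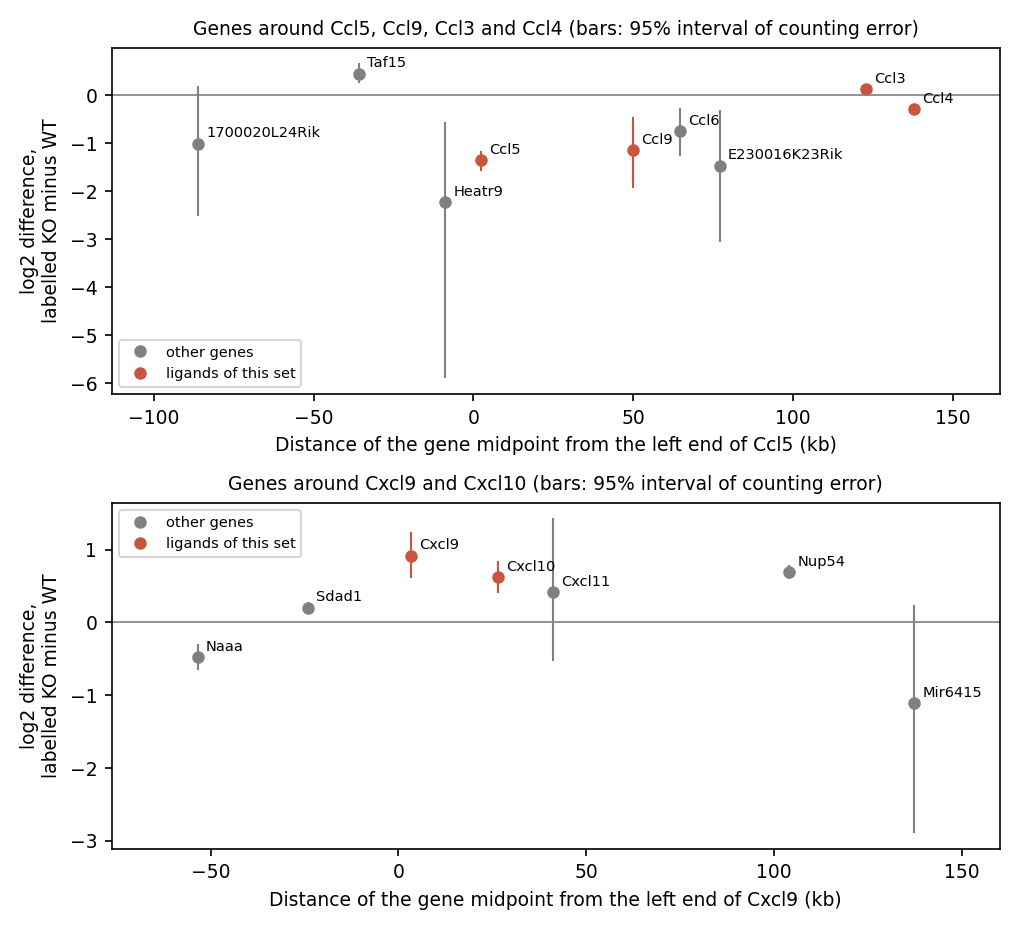
Difference of the deposited log2 values, labelled KO minus labelled WT, against the distance of each gene's midpoint in kb from the left end of Ccl5 (top) and of Cxcl9 (bottom), for genes above 3 reads within 100 kb. Bars are 95% intervals of counting error and the ligands read here are in colour. Ccl5, Ccl9 and Ccl6 lie below 0 beside Ccl3 near 0, and Cxcl9 and Cxcl10 lie above 0 as Nup54 does.

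Of the 8 receptors of these ligands, 7 were above 3 reads, and of those 1 was at least 2-fold higher in the library labelled KO (Xcr1) and 2 were lower (Ccr1 and Cxcr3). All 3 lie in the band where 14.3% of genes were called higher and 18.2% lower. Cxcr3, the receptor of Cxcl9 and Cxcl10, had log2 values of 8.054 and 6.824, a difference of -1.23 (-1.57 to -0.92), opposite in sign to its ligands. Ccr8, the receptor of Ccl1, was at 9.141 and 9.846, a difference of 0.70 (0.56 to 0.86). Ccr4, the receptor of Ccl22, was at 0.07 (-0.03 to 0.16).

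Cxcr6, the receptor of Cxcl16, was at 5.241 and 5.860, a difference of 0.62 (0.02 to 1.26). Receptors at few reads were Ccr1 (15 and 6), Xcr1 (0 and 5) and Ccr3 (0 and 2). The intervals of Ccr1 (-2.98 to 0.12) and Xcr1 (from -0.13, with no upper end) included 0, unlike that of Cxcr3. Among 8 scavenging receptors and processing genes, 5 were above 3 reads and 0 of them passed 2-fold in either direction. Adam10 was at 0.07, Adam17 at 0.34 and Dpp4, a peptidase that trims chemokines, at -0.14. Srgn, the granule proteoglycan that carries Ccl3 and Ccl5, was at 0.02. Adam10, Adam17, Dpp4 and Srgn lie in the band where 0.461% of genes were called higher and 0.743% lower, so 0 called is near the background. Ackr4, at 24 and 26 reads, lies in the lower band (14.3% called higher and 18.2% lower). Ackr2 and Ackr3 were at 0 reads in both libraries, and Ackr1 at 0 and 1.

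The cytokine that induces Cxcl9 and Cxcl10 was higher in the library labelled KO. Ifng had log2 values of 11.721 and 13.044, a difference of 1.32 (1.27 to 1.38). Of 9 cytokines of activated Th1 cells, 3 were at least 2-fold higher (Ifng, Il10 and Il3) and 0 were lower. Ifng lies in the band where 0.461% of genes were called higher and 0.743% lower. Il10 (23 and 58 reads) and Il3 (67 and 162 reads) lie in the lower band, where 14.3% were called higher and 18.2% lower. Tnfsf11, Lta and Tnf were at -0.34, -0.20 and -0.20. The median over these 9 was 0.51.

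Other IFNγ-induced genes were split in sign. Of 20, 10 had a positive difference, as Cxcl9 and Cxcl10 did, and 10 a negative one, with a median of -0.04. In either direction 1 passed 2-fold, Ido1 at 0 and 13 reads, in the band where 14.3% of genes were called higher. Iigp1, Irf8 and Gbp3 were at 0.55, 0.31 and 0.26. Ciita, the master regulator of MHC class II genes, Socs1, an inhibitor of JAK kinases, and the immunoproteasome subunit Psmb9 were at -0.89, -0.87 and -0.51.

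The IFNγ receptor chains Ifngr2 and Ifngr1 were at -0.85 and -0.39, and the kinases Jak1 and Jak2 at 0.01 and 0.06. Of 14 transcription factors tied to ligand transcription in T cells, 0 passed 2-fold and the median was -0.19. All 14 lie in the band where 0.461% of genes were called higher and 0.743% lower, so 0 called is near the background. The most positive were Prdm1 at 0.80, Zeb2 at 0.63 and Eomes at 0.37. Klf2 was at -0.88, Nfatc1 at -0.68 and Klf13, a factor known to bind the Ccl5 promoter, at -0.53.

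Of 28 other chemokine ligands, 15 were at 0 reads in both libraries and 9 were above 3 reads. In the library labelled KO, 1 of these was at least 2-fold higher, Ccl25 (41 and 91 reads, a difference of 1.13), and 4 were lower, all in the band where 14.3% of genes were called higher and 18.2% lower. The neutrophil attractants Cxcl3 and Cxcl2 were at -3.79 (54 and 3 reads) and -1.88 (43 and 11 reads). Cxcl17 (18 and 4 reads) and Ccl17 (9 and 0 reads) were the other lower ones, named after their values were seen. Ccl27a, at 0.45 (286 and 391 reads), has near-identical copies and is uncertain.

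Reads of other cells are set beside the ligands, because such cells also make them. T cell markers were high in both libraries, with Cd3e at log2 values of 14.942 and 14.864 and Cd4 at 14.317 and 13.943. All 6 listed had a negative difference, with summed normalized counts of 110080 and 91706. The sizes were unequal: Cd5 was at -0.525, while Cd3d and Cd28 were at -0.025 with intervals that included 0. B cell markers were higher in the library labelled KO for 6 of 6 genes, with summed normalized counts of 1155 and 2153. Neutrophil markers (5 of 6 listed) summed to 58.0 and 4.79, with Camp at 0 reads in both and Elane at 20 and 0, and mast cell and basophil markers summed to 96.9 and 18.3, with Mcpt4 at 0 in both.

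Macrophage and monocyte markers summed to 687 and 579, and of the 6 above 3 reads 2 were higher and 4 lower. The higher ones were Csf1r (97 and 175 reads) and Mrc1 (0 and 29). Lyz2 (34 and 2 reads), Cd14 (12 and 0), Itgam (163 and 93) and Cd68 (403 and 300) were lower. Adgre1 was at 0 reads in both libraries. Dendritic cell markers summed to 109027 and 97346, nearly all of it Ccr7, which T cells also express. Of the 6 above 3 reads, 4 were higher in the library labelled KO and 2 lower. The higher ones were Flt3 (18 and 68 reads), Zbtb46 (14 and 48), H2-Aa (495 and 837) and Xcr1 (0 and 5). Ccr7 and Itgax (44 and 5 reads) were lower, and Clec9a and Cd209a were at 0 in both. NK markers summed to 2969 and 2500, nearly all of it Nkg7, with Klra4 at 0 in both. The others were split in sign, with Ncr1 at 0 and 6 reads, Klra8 at 11 and 39 and Klrb1c at 17 and 9. CD8 markers summed to 812 and 807, with opposite signs: Cd8a had 289 and 438 reads and Cd8b1 551 and 397. The part of these cells in the ligand values was not tested.

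The composition of the transcript moved with the difference. Over 8579 genes whose log2 values were 8 or more in each library, the difference fell with GC content (Spearman's rho of -0.525, a description across genes that share the same 2 libraries). For the ligands at this level, the median difference at their GC content was 0.12 for Ccl3, 0.04 for Ccl4, -0.10 for Ccl5, -0.03 for Ccl22 and 0.11 for Cxcl10. For lower ligands, not among the genes that gave the trend, it was 0.20 for Ccl9, 0.19 for Cxcl9, 0.12 for Xcl1 and 0.01 for Cxcl16. With this trend removed Ccl3 was at 0.00292, Ccl5 at -1.26 and Cxcl10 at 0.51. Whether GC content accounts for any of the ligand differences was not tested.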

How the data were processed

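RNA of 2 Th1 cultures, 1 labelled WT and 1 labelled Chi3l1 KO, was harvested with Trizol and made into libraries with a SENSE mRNA-Seq kit. The authors sequenced paired ends, mapped reads with TopHat (mm10 in the submitters' processing notes), counted unique and multiple alignments and used edgeR. The authors deposited 1 value per gene for 24421 symbols, taken here to be log2(normalized count + 1), since 99.96% of values under 20 counts were within 0.1 of whole multiples of 0.9675 (WT) and 0.9655 (KO), the worth of 1 read. This unit was inferred from the values. Rebuilt reads summed to 70748000 and 63089400, where 1 read can count on several genes. Intervals (Clopper-Pearson, Poisson, conditional odds ratio, 95%) take reads as independent, which PCR copies are not, and cover counting error only.

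Differences are KO minus WT of the deposited values, with the pseudocount of 1 shrinking those of low genes. A gene was called past 2-fold at 1 on the log2 scale. Coordinates, GC and lengths are from GENCODE M21 (GRCm38). The ligands and lists were chosen with earlier results of these data known. All ligands were named, and from each list up to 3 genes with the most positive and most negative difference at a log2 value of at least 5. Alternatives were other folds, pseudocounts, scalings, a floor, quantile normalization, GC and coding length. Scripts in Python 3.11.15 (numpy 2.4.6, pandas 2.3.3, scipy 1.17.1, matplotlib 3.10.9) were tested on simulated data. Naive samples were not analysed here, and a few items of the lists are not reported here.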

Additional observations from a re-analysis of the deposited data

Results flagged for a closer look

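Chil1, the gene targeted in the KO, was higher by 5.714 on the log2 scale in the library labelled KO (95% interval of counting error 4.17 to 12.0), from 1 read in the library labelled WT and 103 reads in the library labelled KO. It stood out because a signal in a gene outside the ligands exceeded the level in the control library and went against the label. All differences of the 10 ligands are given as the libraries are labelled.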

How the results depend on the processing

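None of the 9 ligands above 3 reads changed the sign of its difference under a pseudocount of 0.1 or none, median-ratio scaling, scaling to the sum without Rn45s, scaling to Actb, quantile normalization or removal of the GC trend, nor did Ccl1 under those not about the pseudocount. Ranges were 0.00292 to 0.267 for Ccl3, -0.33 to -0.15 for Ccl4, -0.16 to -0.02 for Ccl22, -1.39 to -1.22 for Ccl5, -1.34 to -1.01 for Ccl9, 1.46 to 1.72 for Xcl1, 0.72 to 1.06 for Cxcl9, 0.51 to 0.76 for Cxcl10 and -1.59 to -1.36 for Cxcl16. Scaling to the sum without Rn45s and to Actb, with log2 factors of -0.14 and -0.12 for the library labelled KO over the other, raised the difference of each ligand, less so at few reads, and took Cxcl9 past 2-fold, for 3 ligands higher. The number at least as much higher was 4 at 1.5-fold, 0 at 3-fold and 1 among ligands whose log2 value reached 5 in either library, against 2 as reported. The number lower was 0 at 3-fold and 2 with that floor, against 3. No share over all genes is given for these other folds, floor and scalings, so these counts have no background to be read against. Per kilobase, shares of the ligand counts in the libraries labelled WT and KO were 57.5% and 53.0% for Ccl4, 29.1% and 35.9% for Ccl3, and 5.90% and 5.94% for Ccl22. By coding length Ccl22 came before Ccl5 in the library labelled WT and Cxcl10 before Ccl5 in the library labelled KO. No paired analysis was possible because each genotype has 1 library, and for the same reason no library could be left out. Depth limits Ccl1, Xcl1, Ccl9 and Cxcl16, each at 54 reads or fewer in both libraries.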

Other observations

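Chemokine symbols outside the lists were seen after the values were known. Ccl21b and Ccl21c, near-identical copies of a lymphoid homing chemokine gene, had the same value in each library, 63 reads in the library labelled WT and 0 in the library labelled KO, so their reads cannot be told apart. Ccl21a was at 0 reads in both libraries. Ccl27b had 235 and 278 reads, beside 286 and 391 for its near-identical copy Ccl27a.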
